A study of Mus musculus with 6 samples.

Results

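The MAP kinase phosphatases *Dusp1*, *Dusp2*, *Dusp4*, *Dusp5*, *Dusp6* and *Dusp10* were read in RNAseq libraries of activated primary mouse CD4+ T cells, as the rows with these symbols, 6 of 23420 genes in the deposited count table. The rule uses the symbols alone, but the members were chosen with earlier results of these data known. Of the 6 libraries, 2 came from cells transduced with *Dyrk1a* shRNA, 2 from cells transduced with a scrambled control shRNA and treated with harmine at 3.7 µM, and 2 from cells with the control shRNA alone. All cells were CD4+CD62L+ splenocytes of 12-week-old BALB/c mice, purified on magnetic beads and stimulated on plates with antibodies to CD3 and CD28. In every group concentrated shRNA virus was added after 24 h of stimulation. By the sample labels the cells were fed 24 h later with medium and IL-2, with harmine in the harmine group only. They were harvested a further 48 h later. The paper differs on IL-2: its methods add none to Th0 cultures and name no polarizing cytokines when these cells were fed. A short hairpin RNA (shRNA) is processed in the cell to direct the breakdown of an mRNA that it matches, and harmine is a plant alkaloid that inhibits DYRK kinases, CLKs and MAOA. No selection of transduced cells is described in the sources used here, and neither the number of mice nor whether replicates came from separate cultures is given, so the p-values measure the spread between these libraries, which may be technical.

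The protein products remove phosphate from both the threonine and the tyrosine of the activation loop of MAP kinases and thereby switch ERK, p38 and JNK off. Most of their genes are switched on by the pathways that they restrain, so that the mRNAs serve as a record of recent signaling. DUSP1, DUSP2, DUSP4 and DUSP5 are inducible nuclear phosphatases, DUSP6 is cytoplasmic and prefers ERK, and DUSP10 prefers p38 and JNK. In T cells, antigen receptor stimulation induces several of them, and DUSP2, first known as PAC-1, was found in activated T cells.

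The question here was whether harmine, or shRNA against its target kinase DYRK1A, was accompanied by other levels of these feedback genes. The libraries held 1096345 to 3747648 counts, with the shallowest in the control group. Among the 10607 genes that passed the filter on low counts, the median gene differed between replicates by 0.36 on the log2 scale in the control group, against 0.21 in the libraries labelled *Dyrk1a* shRNA and 0.21 in the harmine libraries. *Dyrk1a* itself had 60.2 and 61.9 CPM (counts scaled to library size, here after TMM scaling) with *Dyrk1a* shRNA, 74.8 and 77.6 with harmine, and 58.4 and 82.7 in the controls. The *Dyrk1a* shRNA libraries lay between the controls, at -0.19 on the log2 scale against them (standard error 0.21, adjusted p = 0.835, edgeR), so these counts show no knockdown beyond the spread of the controls, and the group is named by its label. Against the harmine libraries, which also carry the control shRNA, *Dyrk1a* was at -0.32 (standard error 0.20, unadjusted p = 0.121, adjusted p = 0.880, edgeR). The groups did not overlap there, where 20.8% of all genes were lower without overlap. The helper T cell markers *Cd4* and *Cd3e* were at 296 to 382 and 203 to 286 CPM. Of 8 such markers tested none passed after adjustment. With *Dyrk1a* shRNA against control 3 of 8 were above 0 (48.3% of all genes), *Cd3e* at 0.24 and *Cd4* at 0.12. At an unadjusted p under 0.05, 2 were lower (4.59% of all genes). *Cd3g*, a CD3 subunit gene, was at -0.70 (173 and 185 against 314 and 265 CPM, unadjusted p = 0.00134, adjusted p = 0.612, edgeR). The IL-7 receptor gene *Il7r* was at -0.74 with *Dyrk1a* shRNA and -0.57 with harmine against control (unadjusted p = 0.00578 and 0.0232, adjusted p = 0.612 and 0.905, edgeR). With harmine against control 4 of 8 were above 0 (47.5% of all genes), and *Il7r* was the 1 lower at an unadjusted p under 0.05 (3.07%). RNA of genes that mark other cell types was present in part, which does not by itself show that such cells were there. Of NK and CD8 T cell markers, *Ncr1* was at 0 in all libraries but 1 and *Cd8a* lay at 0.84 to 4.22 CPM. *Cd8b1* lay at 14.4 to 22.6 CPM and *Nkg7* at 12.7 to 44.6 CPM. Of myeloid markers, *Csf1r* lay at most at 0.84 CPM, *Cd14* at 0.53 to 4.21 CPM, *Lyz2* at 7.60 to 25.7 CPM and *Cst3* at 119 to 235 CPM.

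All 6 phosphatase genes were detected in every library and all passed the filter. Per length, as CPM per kb of the longest coding transcript, *Dusp2* was the most abundant at 33.0 ± 9.94, followed by *Dusp6* at 11.2 ± 2.49, *Dusp1* at 10.9 ± 1.03, *Dusp10* at 6.36 ± 0.964, *Dusp4* at 4.66 ± 1.33 and *Dusp5* at 2.11 ± 0.979 (SD over all libraries, n = 6). *Dusp2* was above *Dusp6* in 6 of 6 libraries, by 2.06- to 4.70-fold. *Dusp6* and *Dusp1* did not differ beyond their spread, *Dusp6* being the higher in 2 of 6 libraries. *Dusp1* exceeded *Dusp10* in 6 of 6, *Dusp10* exceeded *Dusp4* in 5 of 6, and *Dusp4* exceeded *Dusp5* in 6 of 6. *Dusp2* made up 52.2% and 52.8% of the summed level per kb of the 6 genes with *Dyrk1a* shRNA, 39.0% and 39.1% with harmine, and 55.9% and 46.1% in the controls. The level of *Dusp1* varied least, with 1.28-fold between the highest and the lowest library in CPM, and that of *Dusp5* most, with 3.93-fold.

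The bases before the RefSeq start of each gene (GRCm38.p6) were searched for response elements of the signals that induce this family, in the 250 bases before the start, on both strands. The table held 5 of the 6 members, all but *Dusp4*. For *Dusp1* and *Dusp10* the stretch lies inside the gene span printed below, and for *Dusp5* it overlaps the span in part. These spans are from GENCODE, whose outer starts differ there from the RefSeq start and were not searched. The motifs were the cAMP response element TGACGTCA and its core TGACG, AP-1 as TGANTCA, the NFAT core GGAAA, the GC box GGGCGG, and the CArG box of serum response factor. Among 32851 such stretches, they were found in 1.55%, 17.8%, 6.75%, 55.6%, 32.7% and 1.47%. The stretches of *Dusp2*, whose level differed most between groups relative to its error, of *Dusp1*, whose level varied least, and of *Dusp5* and *Dusp6*, whose counts differed most between the *Dyrk1a* shRNA replicates among the 5 genes, are given 5′ to 3′, with matches to any of these motifs except the GC box in capitals.
*Dusp1*, chr17:26508473-26508722, minus strand: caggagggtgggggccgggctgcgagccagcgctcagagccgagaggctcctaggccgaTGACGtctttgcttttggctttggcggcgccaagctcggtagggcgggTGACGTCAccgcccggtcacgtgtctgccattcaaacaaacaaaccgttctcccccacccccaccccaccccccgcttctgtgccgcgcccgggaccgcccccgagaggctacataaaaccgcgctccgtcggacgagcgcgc
*Dusp2*, chr2:127335909-127336158, plus strand: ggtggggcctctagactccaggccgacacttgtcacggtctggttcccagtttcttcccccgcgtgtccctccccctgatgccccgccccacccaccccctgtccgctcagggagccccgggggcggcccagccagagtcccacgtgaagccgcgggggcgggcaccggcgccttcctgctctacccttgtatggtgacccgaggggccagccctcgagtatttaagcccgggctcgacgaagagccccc
*Dusp5*, chr19:53528895-53529144, plus strand: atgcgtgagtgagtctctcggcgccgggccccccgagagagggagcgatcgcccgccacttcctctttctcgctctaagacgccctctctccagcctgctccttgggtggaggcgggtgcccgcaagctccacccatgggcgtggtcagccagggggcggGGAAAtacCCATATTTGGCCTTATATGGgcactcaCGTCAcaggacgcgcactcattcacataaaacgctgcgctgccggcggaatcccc
*Dusp6*, chr10:99262981-99263230, plus strand: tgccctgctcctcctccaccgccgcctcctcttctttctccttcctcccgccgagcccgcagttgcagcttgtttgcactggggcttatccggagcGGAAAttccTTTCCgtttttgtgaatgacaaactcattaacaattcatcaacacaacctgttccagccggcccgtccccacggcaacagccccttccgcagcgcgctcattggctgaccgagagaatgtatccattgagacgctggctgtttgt

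These stretches differ in what they hold. *Dusp1* has a full cAMP response element at position -143, counted back from the base before the start at -1 and given for the leftmost base of a match, which holds the core on each strand, and a further core at -191. *Dusp5* has 2 adjacent CArG boxes at -82 and -72, with an NFAT core at -90 and a TGACG core on the other strand at -55. *Dusp6* has NFAT cores at -154 and, on the other strand, at -145. *Dusp2* holds none of the capitalised motifs and has 3 GC boxes, at -167, -129 and -94, and *Dusp10*, which is not printed, has 2 GC boxes at -68 and -22 and none of the others. AP-1 letters were found in none of the 5. A match is a run of letters and not a shown binding site, and binding was not measured in these cells.

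*Dusp2*, a nuclear phosphatase of ERK and p38 (GRCm38 chromosome 2, 127336159 to 127338376, plus strand, 4 exons), was the 1 member with an interval away from 0 in any comparison, and it was lowest in the harmine libraries. It had 70.1 and 54.2 CPM (183 and 184 counts) with *Dyrk1a* shRNA, 34.9 and 37.5 CPM (117 and 142 counts) with harmine, and 73.4 and 49.8 CPM (117 and 59 counts) in the controls. Both harmine libraries lay below all 4 others, while the *Dyrk1a* shRNA libraries lay between the controls. The difference did not pass the threshold over all genes. With harmine against control the log2 fold change was -0.78 (standard error 0.23, 95% interval -1.27 to -0.29, unadjusted p = 0.00385, adjusted p = 0.784, quasi-likelihood test of edgeR, adjusted by the method of Benjamini and Hochberg). With *Dyrk1a* shRNA against control it was -0.01 (standard error 0.23, interval -0.49 to 0.47, adjusted p = 0.995), and with *Dyrk1a* shRNA against harmine it was 0.77 (standard error 0.22, interval 0.31 to 1.24, unadjusted p = 0.00267, adjusted p = 0.617). The first and the last of these share the harmine libraries and are not independent. By DESeq2's Wald test the adjusted p was 1 in all 3 comparisons.

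The control libraries set the size of the *Dusp2* difference with harmine. Without control replicate 1 the log2 fold change was -0.47 (unadjusted p = 0.0920, adjusted p = 0.623, edgeR), and without control replicate 2 it was -1.02 and passed (adjusted p = 0.0193), where 291 genes passed in all. Without *Dyrk1a* shRNA replicate 1 the value against harmine was 0.58 (unadjusted p = 0.0518). Markers of CD8 T and NK cells summed to 1553 and 1462 CPM with *Dyrk1a* shRNA, 1306 and 1201 with harmine, and 1946 and 1433 in the controls. Most of this sum is *Gzmb*, which activated CD4+ cells also make. The sum was lowest in both harmine libraries, and so was *Gzmb* alone. It lay at 1153 to 1253 CPM with harmine, 1406 to 1496 with *Dyrk1a* shRNA and 1394 to 1856 in the controls. Without overlap, 15.9% of all genes were lower with harmine against control and 20.2% higher with *Dyrk1a* shRNA against harmine. Of the 9 markers 6 were tested, with a median log2 fold change of -0.31 with harmine against control. There 4 of 6 were below 0, and 47.5% of all genes were above 0. The 2 above 0 included *Cd8a* at 1.40 (standard error 0.97), and *Nkg7* was at -0.99 with groups that overlapped. *Ncr1* was at 0 in both harmine and both control libraries. Myeloid markers summed to 184 and 149 CPM, 155 and 140 CPM, and 281 and 149 CPM in *Dyrk1a* shRNA, harmine and control libraries, with 3 of 4 tested below 0 with harmine against control. B cell markers summed to 36.8 and 40.4 CPM with *Dyrk1a* shRNA, 28.6 and 34.6 CPM with harmine, and 35.2 and 36.3 CPM in the controls, lowest in both harmine libraries. Of these, 5 of 6 tested were below 0 with harmine against control. With *Dyrk1a* shRNA against harmine 6 of 6 were above 0 (median 0.33, 49.9% of all genes above 0). Erythroid and platelet markers summed to 12.6 and 15.6 CPM with *Dyrk1a* shRNA, 11.03 and 10.3 CPM with harmine, and 30.1 and 15.2 CPM in the controls, lowest in both harmine libraries. With harmine against control 2 of 2 tested were below 0, the platelet gene *Pf4* at -1.44 (standard error 0.45, unadjusted p = 0.00572, adjusted p = 0.832, edgeR). *Pf4* had 4.75 and 7.15 CPM with harmine and 7.60 and 23.2 CPM in the controls, so 1 control library lay close to harmine. With *Dyrk1a* shRNA against harmine *Pf4* was at 0.88 and *Ppbp*, the other gene tested, at -0.73. The part of these cells in the *Dusp2* result was not tested, and in bulk RNA fewer cells of a type and less RNA per cell cannot be told apart.

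**Figure D1:**
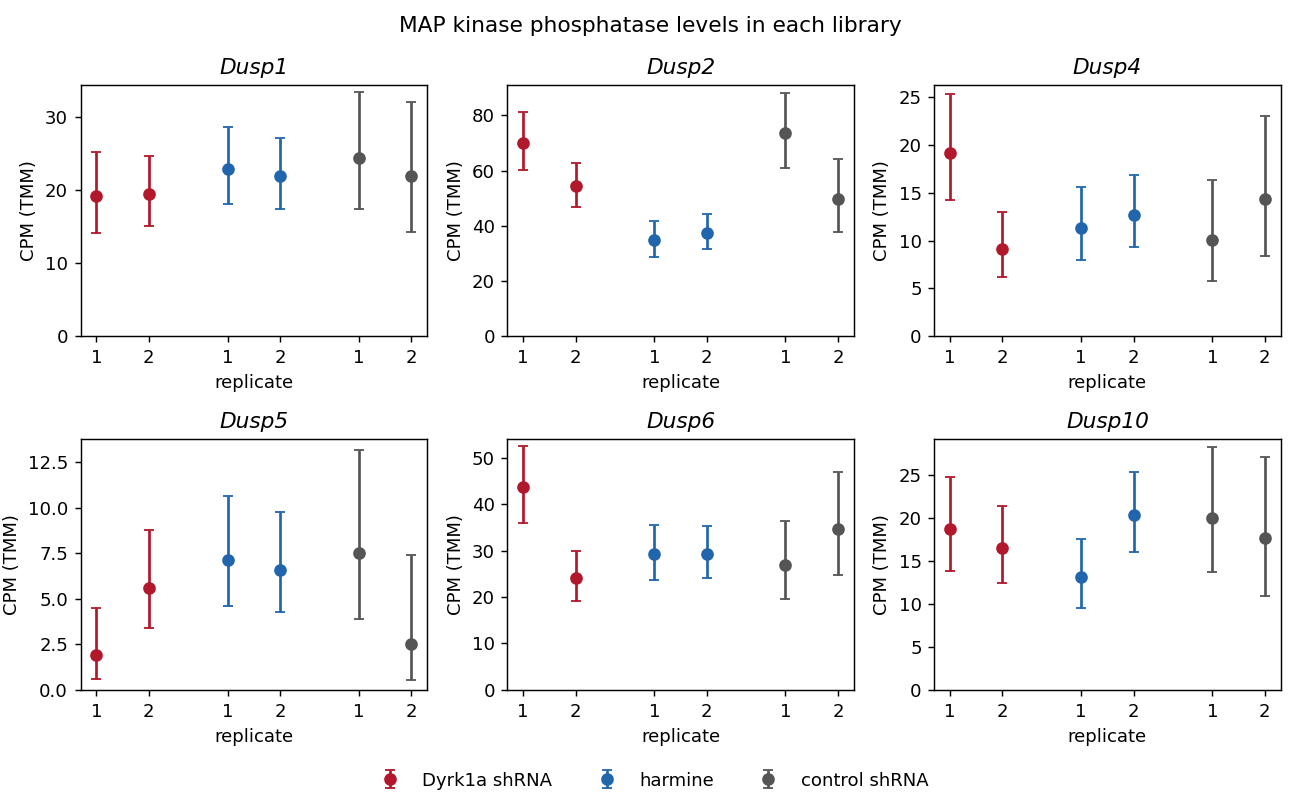
Level of each phosphatase gene in each library, in CPM scaled by TMM (vertical axis, from 0), by replicate number (horizontal axis) for *Dyrk1a* shRNA (red), harmine (blue) and control shRNA (grey). Points are libraries and bars are exact 95% Poisson intervals of the count, which cover counting error only. *Dusp2* is at 34.9 and 37.5 CPM with harmine and at 49.8 to 73.4 CPM in the other libraries.

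*Dusp1*, also named MKP-1, an immediate early gene whose product acts on p38, JNK and ERK (chromosome 17, 26505590 to 26562128, minus strand), was the steadiest member. It had 19.2 and 19.5 CPM with *Dyrk1a* shRNA, 23.0 and 21.9 CPM with harmine, and 24.5 and 21.9 CPM in the controls. Both *Dyrk1a* shRNA libraries lay below all 4 others, but by less than the counting error of each library, whose intervals overlapped throughout (14.2 to 25.3 CPM in *Dyrk1a* shRNA replicate 1, and 17.4 to 33.5 CPM in control replicate 1). The log2 fold change was -0.27 with *Dyrk1a* shRNA against control (standard error 0.26, 95% interval -0.83 to 0.29, adjusted p = 0.811, edgeR), -0.06 with harmine against control (standard error 0.26, interval -0.60 to 0.49, adjusted p = 0.988) and -0.21 with *Dyrk1a* shRNA against harmine (standard error 0.23, interval -0.71 to 0.28, adjusted p = 0.934).

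*Dusp4* and *Dusp6* took the same order over the libraries, and this order did not follow the groups. *Dusp4*, a nuclear phosphatase of ERK and JNK (chromosome 8, 34807297 to 34819894, plus strand), had 19.2 and 9.14 CPM with *Dyrk1a* shRNA, 11.3 and 12.7 CPM with harmine, and 10.0 and 14.4 CPM in the controls. *Dusp6*, also named MKP-3, the cytoplasmic ERK phosphatase (chromosome 10, 99263231 to 99267489, plus strand), had 43.7 and 24.2 CPM, 29.2 and 29.3 CPM, and 27.0 and 34.6 CPM in *Dyrk1a* shRNA, harmine and control libraries. For both genes *Dyrk1a* shRNA replicate 1 was the highest and *Dyrk1a* shRNA replicate 2 the lowest of all libraries, with counting intervals of these replicates that did not overlap (lower limits of 14.2 CPM for *Dusp4* and 36.0 CPM for *Dusp6* in replicate 1, above the upper limits of 12.97 and 30.004 CPM in replicate 2). The groups of the *Dusp4* and *Dusp6* values overlapped in all 3 comparisons. Against control the *Dyrk1a* shRNA libraries gave a log2 fold change of 0.21 for *Dusp4* (standard error 0.40, adjusted p = 0.923, edgeR) and 0.13 for *Dusp6* (standard error 0.29, adjusted p = 0.930). With harmine against control it was 0.01 for *Dusp4* (95% interval -0.84 to 0.85, adjusted p = 0.999) and -0.06 for *Dusp6* (95% interval -0.67 to 0.55, adjusted p = 0.989). Against harmine the *Dyrk1a* shRNA libraries gave 0.20 and 0.19 (adjusted p = 0.966 and 0.951). Without *Dyrk1a* shRNA replicate 1 the values of *Dusp4* and *Dusp6* against control were -0.39 and -0.33.

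Over the 6 libraries, Pearson's r between the log2 CPM of *Dusp4* and *Dusp6* was 0.99 (exact permutation test, two-sided, p = 0.00139, Benjamini-Hochberg adjusted over all 15 pairs of members p = 0.0208) and Spearman's rho was 1 (exact p = 0.00278, adjusted p = 0.0417). Without the libraries with the highest and the lowest *Dusp4* level, both of the *Dyrk1a* shRNA group, r was 0.93 over the other 4. The 2 values of a library share its depth and scaling, and the libraries include replicates of 3 groups. No other pair passed the adjustment, the next smallest adjusted p being 0.132 for r.

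**Figure D2:**
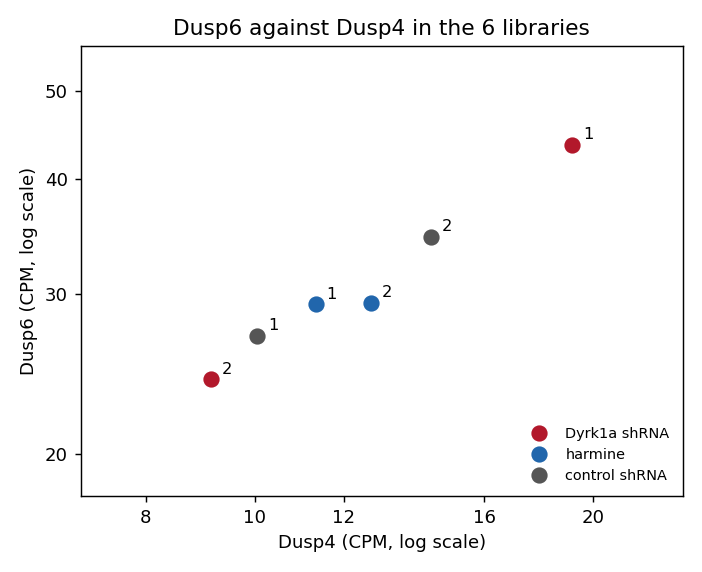
Level of *Dusp6* (vertical axis) against that of *Dusp4* (horizontal axis), both in CPM on log scales, in *Dyrk1a* shRNA (red), harmine (blue) and control shRNA (grey) libraries, with the replicate number beside each point. *Dyrk1a* shRNA replicate 1 lies highest for both genes, at 19.2 and 43.7 CPM, and *Dyrk1a* shRNA replicate 2 lowest, at 9.14 and 24.2 CPM.

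*Dusp5*, a nuclear phosphatase specific for ERK (chromosome 19, 53529109 to 53542431, plus strand), was the lowest member and the least certain. It had 5 and 19 counts with *Dyrk1a* shRNA (1.92 and 5.60 CPM), 24 and 25 counts with harmine (7.15 and 6.60 CPM), and 12 and 3 counts in the controls (7.53 and 2.53 CPM). *Dyrk1a* shRNA replicate 1 and control replicate 2 lay below the other 4 libraries, but not beyond counting error. Their counting intervals (0.62 to 4.47 and 0.52 to 7.40 CPM) overlapped that of *Dyrk1a* shRNA replicate 2 (3.37 to 8.75 CPM). In *Dyrk1a* shRNA replicate 1, where *Dusp4* and *Dusp6* were highest, *Dusp5* was lowest. It stood there at 1.92 CPM against 2.53 CPM in control replicate 2, which is within counting error. Both *Dyrk1a* shRNA libraries were below both harmine libraries, with a log2 fold change of -0.80 (standard error 0.49, 95% interval -1.85 to 0.25, unadjusted p = 0.125, adjusted p = 0.886, edgeR). It was -0.29 without *Dyrk1a* shRNA replicate 1 and -1.82 without *Dyrk1a* shRNA replicate 2, neither past the threshold. Against control the values were 0.37 with harmine (interval -0.81 to 1.54, adjusted p = 0.962) and -0.43 with *Dyrk1a* shRNA (interval -1.73 to 0.86, adjusted p = 0.891), and a difference was not detectable at this depth. An antisense gene shares 547 exonic bases with *Dusp5*, and since the library kit does not mark strand, reads of both cannot be told apart there.

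*Dusp10*, also named MKP-5, the phosphatase of JNK and p38 (chromosome 1, 184013302 to 184075636, plus strand), had 18.8 and 16.5 CPM with *Dyrk1a* shRNA, 13.1 and 20.3 CPM with harmine, and 20.1 and 17.7 CPM in the controls. The harmine replicates held both the lowest and the highest value, so the groups overlapped throughout. The log2 fold change was -0.18 with harmine against control (95% interval -0.83 to 0.48, adjusted p = 0.971, edgeR), -0.11 with *Dyrk1a* shRNA against control (interval -0.78 to 0.55, adjusted p = 0.949) and 0.06 with *Dyrk1a* shRNA against harmine (interval -0.53 to 0.65, adjusted p = 0.989).

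As a group, the 6 genes lay on both sides of 0 in every comparison. In the comparison of harmine with control, 2 of 6 were above 0 (47.5% of all genes), with a median log2 fold change of -0.06 against -0.02 over all genes. None passed after adjustment in edgeR's quasi-likelihood test, where 0.00943% of all genes did. At an unadjusted p under 0.05 it was 1 of 6 (5.3% of all genes), with 0 higher (2.22%) and 1 lower (3.07%), which was *Dusp2*. The groups did not overlap for 1 of 6 (32.3% of all genes), again *Dusp2*, which was lower (15.9%).

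In the comparison of *Dyrk1a* shRNA with control, 2 of 6 were above 0 (48.3% of all genes), with a median of -0.06 against -0.01 over all genes. None passed after adjustment (0.0189% of all genes), and at an unadjusted p under 0.05 none was higher (3.1%) or lower (4.59%), where 7.69% of all genes were either. The groups did not overlap for 1 of 6 (35.4% of all genes), which was *Dusp1*, lower with *Dyrk1a* shRNA (16.9%). In the comparison of *Dyrk1a* shRNA with harmine, 4 of 6 were above 0 (49.9% of all genes), with a median of 0.13 against 0.00 over all genes. None passed after adjustment (0.00943% of all genes), and at an unadjusted p under 0.05 it was 1 of 6 (5.73%), with 1 higher (2.91%), *Dusp2*, and 0 lower (2.82%). The groups did not overlap for 3 of 6 (41% of all genes), with *Dusp2* higher (20.2%) and *Dusp1* and *Dusp5* lower (20.8%). DESeq2's Wald test called 0 members in each comparison, and gave an unadjusted p under 0.05 to 1 with harmine against control, 0 with *Dyrk1a* shRNA against control and 1 with *Dyrk1a* shRNA against harmine.

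**Figure D3:**
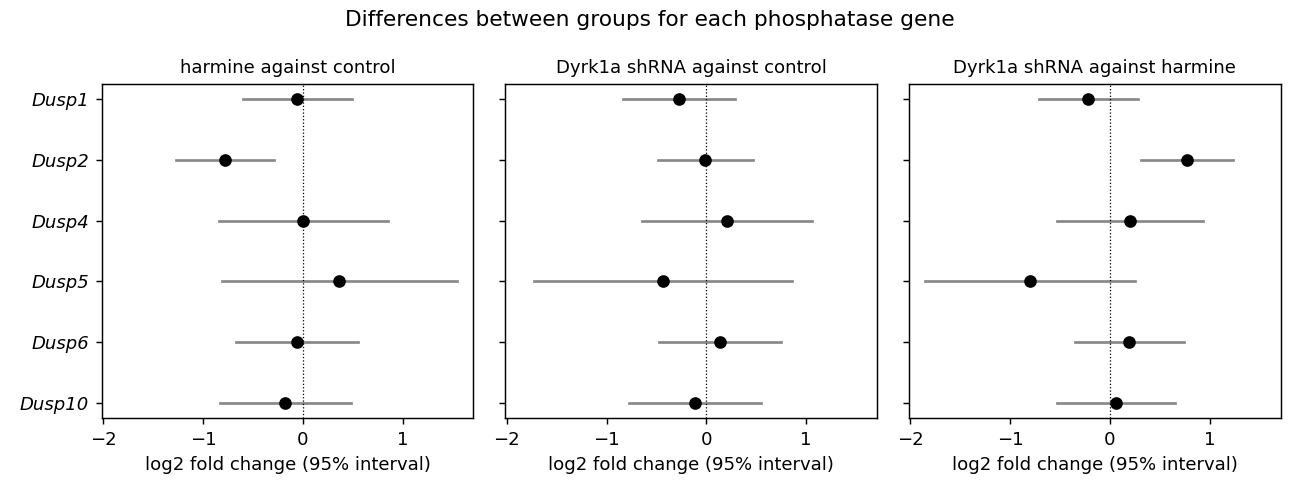
Log2 fold change of each phosphatase gene (points) with its 95% interval (lines) on the horizontal axis, for harmine against control, *Dyrk1a* shRNA against control and *Dyrk1a* shRNA against harmine. The intervals of *Dusp2* with harmine against control (-1.27 to -0.29) and *Dyrk1a* shRNA against harmine (0.31 to 1.24) lie away from 0, and all others include it.

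Of the other MAP kinase phosphatases of the family, *Dusp7* and *Dusp16* were high enough to test and *Dusp8* and *Dusp9* were not. *Dusp16*, a phosphatase of JNK, had 48.7 and 50.7 CPM with *Dyrk1a* shRNA, 43.2 and 51.5 CPM with harmine, and 47.1 and 54.9 CPM in the controls, and its groups overlapped in all 3 comparisons. *Dusp7*, a cytoplasmic ERK phosphatase close to *Dusp6*, had 33.0 and 30.4 CPM with *Dyrk1a* shRNA, 24.4 and 24.3 CPM with harmine, and 27.0 and 19.4 CPM in the controls. It was above both other groups with *Dyrk1a* shRNA, at log2 fold changes of 0.42 against control (standard error 0.25, adjusted p = 0.711, edgeR) and 0.37 against harmine (standard error 0.22, adjusted p = 0.866), neither of which passed. In the same comparisons 18.5% and 20.2% of all genes were higher without overlap. Of 16 atypical dual-specificity phosphatases 8 were tested, with medians of -0.01, -0.24 and -0.20 with harmine against control, *Dyrk1a* shRNA against control and *Dyrk1a* shRNA against harmine, and none passed in either direction or had an unadjusted p under 0.05. The smallest p was that of *Styx*, which encodes a catalytically inactive member, at -0.42 with *Dyrk1a* shRNA against harmine (24.1 and 21.2 against 32.2 and 28.5 CPM, standard error 0.22, unadjusted p = 0.0736, adjusted p = 0.859, edgeR). *Dusp22*, whose product restrains T cell receptor signaling, was at 0.44 with harmine against control (standard error 0.24, adjusted p = 0.928, edgeR), and *Dusp3*, a small ERK and JNK phosphatase, at 0.86 with *Dyrk1a* shRNA against control (standard error 0.48, adjusted p = 0.696). Of 11 other phosphatases that act on MAP kinases, 10 were tested with the same outcome.

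Around these phosphatases, the genes of the MAP kinase cascades and their targets were counted in the same fits, and none passed after adjustment in any comparison in edgeR or had an adjusted p under 0.612. In the RAS to ERK cascade, with 15 of 16 genes tested, 8 were above 0 with *Dyrk1a* shRNA against control (median 0.09, 48.3% of all genes above 0), 7 with harmine against control (median -0.05, 47.5% of all genes) and 10 with *Dyrk1a* shRNA against harmine (median 0.10, 49.9% of all genes). At an unadjusted p under 0.05, 3 of 15 were higher with *Dyrk1a* shRNA against control (3.1% of all genes), among them the scaffold *Ksr1* at 0.63 (standard error 0.26) and the MEK gene *Map2k1* at 0.45 (standard error 0.19), and *Ksr1* was also higher against harmine at 0.52 (standard error 0.22). *Ksr1* had 37.5 and 29.8 CPM with *Dyrk1a* shRNA, 23.2 and 23.5 CPM with harmine, and 20.7 and 22.8 CPM in the controls, so that the *Dyrk1a* shRNA libraries lay above all 4 others. With *Dyrk1a* shRNA, 18.5% of all genes were higher without overlap against control and 20.2% against harmine. Of the p38 and JNK cascades, with 18 of 20 genes tested, 11 were above 0 with *Dyrk1a* shRNA against control (48.3% of all genes), 13 with harmine against control (47.5%) and 12 with *Dyrk1a* shRNA against harmine (49.9%). At an unadjusted p under 0.05 it was 1 of 18 in each comparison with harmine, lower in both (3.07% of all genes with harmine against control and 2.82% with *Dyrk1a* shRNA against harmine). The p38 isoform *Mapk13* was at -1.02 with *Dyrk1a* shRNA against harmine (standard error 0.41, unadjusted p = 0.0224), and *Gadd45g*, an activator of these cascades, was at -0.46 with harmine against control (standard error 0.21, unadjusted p = 0.0440).

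Of 13 genes listed here as ERK feedback genes outside the DUSP family, 10 were tested. An unadjusted p under 0.05 was given to 1 with harmine against control (5.3% of all genes), *Lgals1*. It was given to 0 with *Dyrk1a* shRNA against control (7.69%) and to 1 with *Dyrk1a* shRNA against harmine (5.73%), *Dok1*. *Dok1*, an adaptor that restrains RAS, had 38.7 and 35.7 CPM with *Dyrk1a* shRNA, 25.6 and 24.0 CPM with harmine, and 32.01 and 27.9 CPM in the controls. It was lowest in both harmine libraries. Without overlap, 15.9% of all genes were lower with harmine against control and 20.2% higher with *Dyrk1a* shRNA against harmine. The share that was lowest with harmine against both groups at once was not counted. The log2 fold changes of *Dok1* were 0.58 for *Dyrk1a* shRNA against harmine (standard error 0.21, adjusted p = 0.827, edgeR) and -0.28 for harmine against control (standard error 0.24, adjusted p = 0.938). *Ier3* of the same list was highest in both harmine libraries, at 139 to 164 CPM. It lay at 127 to 132 CPM with *Dyrk1a* shRNA and 109 to 124 CPM in the controls (0.38 with harmine against control, standard error 0.19, adjusted p = 0.928, edgeR). Without overlap, 16.4% of all genes were higher with harmine against control and 20.8% lower with *Dyrk1a* shRNA against harmine. Of the 10 tested, 5 were above 0 with harmine against control (47.5% of all genes). The galectin *Lgals1* is in this list by choice, and its place there does not make it a feedback inhibitor of ERK. It had 284 and 322 CPM with *Dyrk1a* shRNA, 210 and 253 CPM with harmine, and 625 and 294 CPM in the controls. Its log2 fold change was -0.99 for harmine against control (standard error 0.29, adjusted p = 0.784, edgeR). Of 23 immediate early and ERK target genes 18 were tested, with 10 above 0 with harmine against control (47.5% of all genes), 10 with *Dyrk1a* shRNA against control (48.3%) and 11 with *Dyrk1a* shRNA against harmine (49.9%). At an unadjusted p under 0.05 these were 2 (5.3% of all genes), 2 (7.69%) and 3 (5.73%) in the same 3 comparisons. With harmine against control 1 was higher (2.22%), *Zfp36* at 0.54 (standard error 0.22, adjusted p = 0.905, edgeR), and 1 lower (3.07%), *Egr1*. The list median there was 0.15, against -0.02 over all genes. With *Dyrk1a* shRNA 2 were higher against control (3.1%), and 2 higher (2.91%) and 1 lower (2.82%) against harmine. *Egr1*, an immediate early transcription factor, had 14.2 and 8.84 CPM with *Dyrk1a* shRNA, 5.66 and 3.17 CPM with harmine, and 20.1 and 4.22 CPM in the controls. Its log2 fold change was 1.37 for *Dyrk1a* shRNA against harmine (standard error 0.53, adjusted p = 0.830) and -1.55 for harmine against control (standard error 0.58, adjusted p = 0.903), where the groups overlapped through control replicate 2. *Jun*, an AP-1 subunit, had 47.1 and 44.2 CPM with *Dyrk1a* shRNA, 34.3 and 41.2 CPM with harmine, and 18.8 and 34.6 CPM in the controls, with a log2 fold change of 0.81 for *Dyrk1a* shRNA against control (standard error 0.27, adjusted p = 0.612). *Etv4*, an ERK target of the ETS family, had 2.68 and 3.54 CPM, 1.49 and 0.53 CPM, and 3.14 and 3.38 CPM in *Dyrk1a* shRNA, harmine and control libraries, lowest in both harmine libraries. Such separation is common, with 15.9% of all genes lower without overlap with harmine against control and 20.2% higher with *Dyrk1a* shRNA against harmine.

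**Figure D4:**
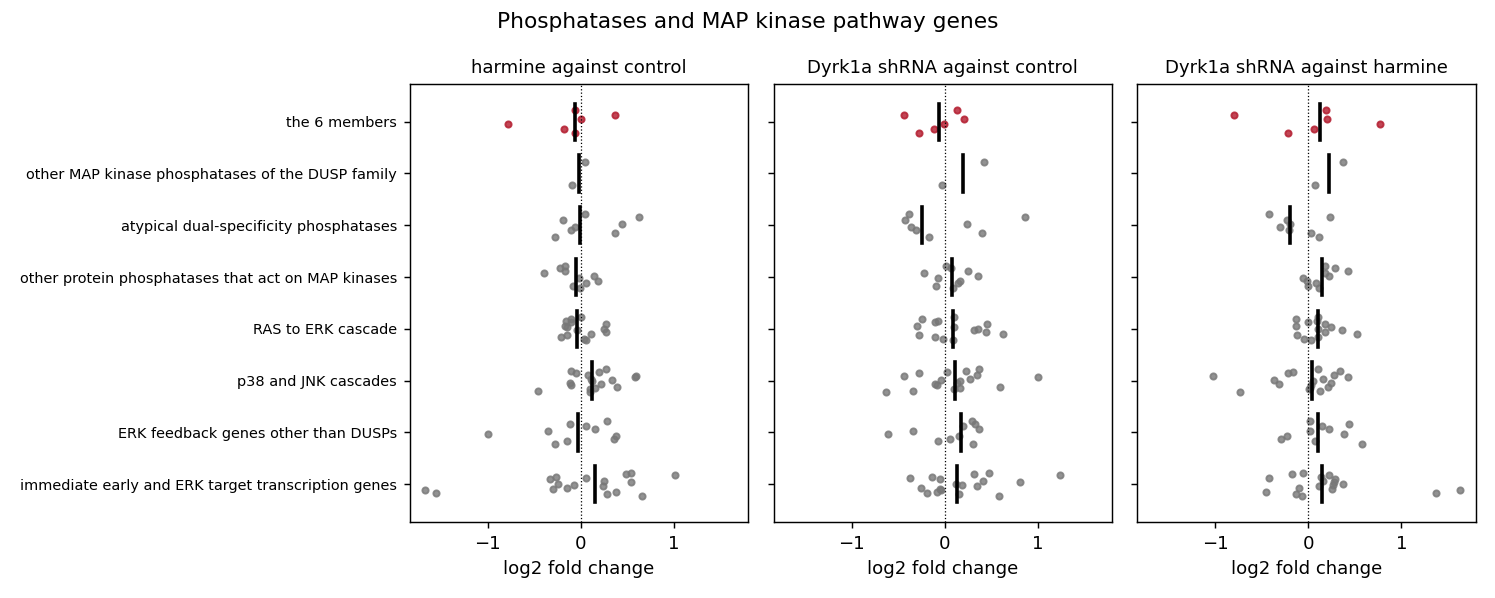
Log2 fold changes (horizontal axis) of the 6 phosphatase genes (red) and of tested genes of 7 lists of phosphatases and MAP kinase pathway genes (grey), for the 3 comparisons. Points are single genes and bars list medians, which for the 6 genes are -0.06, -0.06 and 0.13 from left to right.

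The genes most like each member over the 6 libraries were found by Pearson's r of log2 CPM among 5140 genes with an average log2 CPM of at least 5. With so many genes and 6 libraries high values of r arise in any case, and they are given as a description. *Slamf1*, a costimulatory receptor of T cells, was nearest to both *Dusp4* (0.98) and *Dusp6* (0.97). Nearest to *Dusp2* were *Eif2b2*, a translation initiation factor subunit, at 0.97 and *Nfe2l2*, the factor NRF2 of the oxidative stress response, at 0.96. Nearest to *Dusp1* were *1810013L24Rik* and, second, *Rgs1*, a regulator of G protein signaling, both at 0.99. Nearest to *Dusp5* was the integrin *Itga4* at 0.96, and nearest to *Dusp10* the galectin *Lgals9* at 0.98.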

How the data were processed

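From polyA RNA the authors made cDNA by poly-dT priming and Nextera libraries, sequenced these on a MiSeq, aligned reads to mm10 (TopHat2 2.0.13 in the submitters' processing notes) and deposited RSEM expected counts per gene, not normalized. The version of RSEM and the annotation are not given in the sources used here. Expected counts were rounded to whole numbers, filtered with filterByExpr (minimum count 10) and scaled by TMM. All 6 libraries entered 1 robust quasi-likelihood fit of 3 group means (edgeR 4.0.16, R 4.3.3), and the two-sided p-values were adjusted by Benjamini-Hochberg over the 10607 genes tested, at a threshold of 0.05. Columns were matched to libraries by the sample descriptions. Libraries held 1096345 to 3747648 counts, and per-library intervals are exact Poisson at 95%. Alternatives were other scalings, DESeq2 1.42.0, other filters, a replicate block, fits of 2 groups, thinning, removal of length and GC trends (94.2% of genes tested had both), and leaving out each library.

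Named are all members, *Dyrk1a*, up to 3 genes per list with the smallest unadjusted p, and up to 2 genes most like each member. *Cd4*, *Cd3e*, *Ncr1*, *Cd8b1*, *Csf1r*, *Lyz2*, *Cd14*, *Zfp36*, *Dusp8* and *Dusp9* were named after their values were seen. The members and lists were chosen with earlier results of these data known. Positions and transcript lengths come from GENCODE M21 on GRCm38, the assembly of mm10, and sequences from RefSeq. Some genes that this rule names are not reported here. Protein sequences were not used here.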

Additional observations from a re-analysis of the deposited data

How the results depend on the processing

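Depth limits these results, since *Dusp5* had 3 to 25 counts a library and was not tested at a minimum count of 50 or after thinning. *Dusp4* was not tested at a minimum count of 50 either, so the medians there rest on fewer members. *Dusp2* kept its direction with harmine against control and with *Dyrk1a* shRNA against harmine under every setting run. No member was called under any setting but 1: the count of members called with harmine against control was 0 to 1 when a library was left out, the 1 being *Dusp2* without control replicate 2 (-1.02, adjusted p = 0.0193, edgeR), and 0 in the other comparisons. Apart from leaving out libraries, 142 values of the members kept their direction and 11 turned, none of them called. With harmine against control, *Dusp4* was at -0.0013 with DESeq2's size factors, -0.0085 in DESeq2's Wald test, -0.10 after thinning and -0.077 without length and GC trends, and *Dusp1* at 0.0074 after thinning. With *Dyrk1a* shRNA against control, *Dusp2* was at 0.026 by library size alone, 0.00097 in the Wald test, 0.0096 without a filter and 0.0036 with the replicate block, and *Dusp4* at -0.0092 without the trends. With *Dyrk1a* shRNA against harmine, *Dusp10* was at -0.065 after thinning.

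When each library was left out, the values with harmine against control ranged from -0.13 to 0.024 for *Dusp1*, -1.02 to -0.47 for *Dusp2*, -0.26 to 0.26 for *Dusp4*, -0.13 to 1.42 for *Dusp5*, -0.25 to 0.12 for *Dusp6*, -0.54 to 0.10 for *Dusp10* and -0.12 to 0.39 for *Dyrk1a*. With *Dyrk1a* shRNA against control they ranged from -0.24 to 0.30 for *Dusp2*, -0.39 to 0.67 for *Dusp4*, -1.45 to 0.62 for *Dusp5*, -0.33 to 0.51 for *Dusp6* and -0.45 to 0.069 for *Dyrk1a*. With *Dyrk1a* shRNA against harmine they ranged from 0.58 to 0.95 for *Dusp2*, -0.39 to 0.67 for *Dusp4*, -1.82 to -0.29 for *Dusp5*, -0.27 to 0.58 for *Dusp6* and -0.21 to 0.42 for *Dusp10*, and the median of the members from -0.24 to 0.37. The cause of these turns beyond the change of libraries was not tested.

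Over all genes, edgeR called 1 gene with harmine against control, 2 with *Dyrk1a* shRNA against control and 1 with *Dyrk1a* shRNA against harmine. The first count was 2 in the Wald test, 20 without a filter, 0 at a minimum count of 50 (382 at an unadjusted p under 0.05), 0 with the replicate block (721) and 0 in the fit of 2 groups (418), and 1 to 291 with a library left out. The second was 28 without a filter, 5 in the fit of 2 groups and 1 after thinning, and 1 to 439 with a library left out. Both upper values came without control replicate 2. The third was 3 by library size alone, 2 in the Wald test, 22 without a filter, 0 with the block (863), 4 in the fit of 2 groups, 0 without the trends (510), and 0 to 5 with a library left out. The causes were not tested. Replicate numbers were not taken as pairs: the differences of replicate 1 and 2 across genes correlated at 0.24 between *Dyrk1a* shRNA and harmine, 0.02 between *Dyrk1a* shRNA and control and 0.12 between harmine and control.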
